A study of Mus musculus with 24 samples.

Results

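Cdx2 binding was examined at 10 genes of goblet cells and epithelial mucins in mouse colon organoids: Muc2, Muc13, Muc4, Muc1, Tff3, Clca1, Zg16, Agr2, Spdef and Atoh1. The genes were a fixed list that was chosen with earlier results of these data known. A peak belonged to a gene when its summit lay in the gene body or within 50 kb to either side of it. Of 206283 peaks in the 12 lists, 256 met this rule, and these peaks merged into 57 of 61454 regions. The 12 Cdx2 libraries formed 4 groups of 3, from organoids of the proximal or the distal colon grown in WENR-plus or in WENR-minus medium. WENR-plus contains Wnt3a, EGF, Noggin and R-spondin 1, and all organoids had been kept in it for 4 months. For the WENR-minus groups, 2 days in WENR-plus after plating were followed by 3 days in medium without these factors. All 4 groups shared a genotype, heterozygous for a Cre-inducible BrafV600E allele and for a tdTomato reporter, and came from female mice of 8 weeks. The organoids were generated from 3 mice, and each library was a mixture of the cell types of a culture, so a difference in binding per cell and a difference in the share of cells of 1 type cannot be told apart. The lists hold binding sites and no transcript levels, so the presence of goblet cells in these cultures could not be checked from marker expression.

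Goblet cells are the mucus-secreting cells of the intestinal epithelium. The transcription factor Atoh1 commits progenitors to the secretory lineages, and the Ets factor Spdef acts later in goblet cell maturation. Muc2 is the gel-forming mucin from which the colonic mucus layer is built. Agr2 is a protein disulfide isomerase of the endoplasmic reticulum that is needed for mucin production. Tff3, Clca1 and Zg16 are secreted with the mucus, whereas Muc1, Muc4 and Muc13 are transmembrane mucins of the apical surface. Cdx2 is a homeobox factor of intestinal epithelium whose recognition sequence is TTTAT followed by G or T and then by A or G.

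The lists differed in length, from 5608 to 42192 peaks on the main chromosomes, and proximal replicates 1 and 2 in WENR-plus were the longest. A peak that is missing from a short list may be a site that did not pass the q-value limit in that library. For each peak the fold enrichment over the matched input is given, together with its percentile within its own list, in which 100 is the highest fold.

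The sequences of 9 regions are shown because they carry the results below. They are 101 bases long, centred on the median summit, and taken from the forward strand of GRCm38 (mm10). Capitals mark matches to the Cdx2 sequence on either strand. Of these, 8 are regions that no other region of the same gene exceeded in number of libraries, and the upstream region of Muc4 was added after its values were seen.
Clca1 +16.0 kb, chr3:144993169-144993269: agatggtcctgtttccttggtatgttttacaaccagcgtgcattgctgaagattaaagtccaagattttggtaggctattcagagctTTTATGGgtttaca
Zg16 +16.1 kb, chr7:127071160-127071260: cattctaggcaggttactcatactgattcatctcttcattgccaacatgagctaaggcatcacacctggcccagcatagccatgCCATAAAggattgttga
Muc13 -29.4 kb, chr16:33764587-33764687: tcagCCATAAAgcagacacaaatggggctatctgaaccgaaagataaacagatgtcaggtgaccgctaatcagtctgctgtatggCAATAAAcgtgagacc
Atoh1 +25.6 kb, chr6:64754645-64754745: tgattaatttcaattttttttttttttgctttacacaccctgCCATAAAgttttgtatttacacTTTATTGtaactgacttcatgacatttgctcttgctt
Muc4 +9.8 kb, chr16:32745915-32746015: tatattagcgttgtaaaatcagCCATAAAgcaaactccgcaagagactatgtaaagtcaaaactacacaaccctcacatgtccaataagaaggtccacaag
Agr2 +0.9 kb, chr12:35993761-35993861: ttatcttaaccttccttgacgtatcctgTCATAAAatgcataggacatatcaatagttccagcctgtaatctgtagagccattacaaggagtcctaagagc
Tff3 -0.4 kb, chr17:31129983-31130083: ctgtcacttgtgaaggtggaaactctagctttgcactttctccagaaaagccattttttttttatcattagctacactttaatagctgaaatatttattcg
Muc2 -0.2 kb, chr7:141690053-141690153: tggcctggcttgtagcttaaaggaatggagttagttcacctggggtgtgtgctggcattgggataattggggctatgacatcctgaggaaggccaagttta
Muc4 -9.9 kb, chr16:32725924-32726024: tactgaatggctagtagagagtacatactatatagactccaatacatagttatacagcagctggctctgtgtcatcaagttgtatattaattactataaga

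Regions are named by the gene and by the distance of the median summit from its nearest annotated start site, with negative values upstream. The sites at Clca1, Zg16, Muc13, Atoh1, Muc4 and Agr2 that most libraries shared all held a match in this window, whereas the sites at the Tff3 and Muc2 starts and the upstream site of Muc4 held none.

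The most widely shared binding was at 4 of the 10 loci. Muc13, Clca1, Zg16 and Atoh1 each had a region called in all 12 libraries, which 12.9% of 21911 protein-coding genes had under the same rule. Muc4 reached 11 libraries, Agr2 9, Tff3 8, Muc2 3 and Muc1 1 at their most shared region. Spdef had no peak in any library, in its gene body or within 50 kb, a state shared by 15.5% of protein-coding genes. No region within 3 kb of a member's start site was called in all 12 libraries, against 1.35% of protein-coding genes. A start-site region was called in at least 1 library at Muc2, Muc13, Tff3 and Agr2, 4 of 10 members, beside 22.7% of protein-coding genes.

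**Figure D1:**
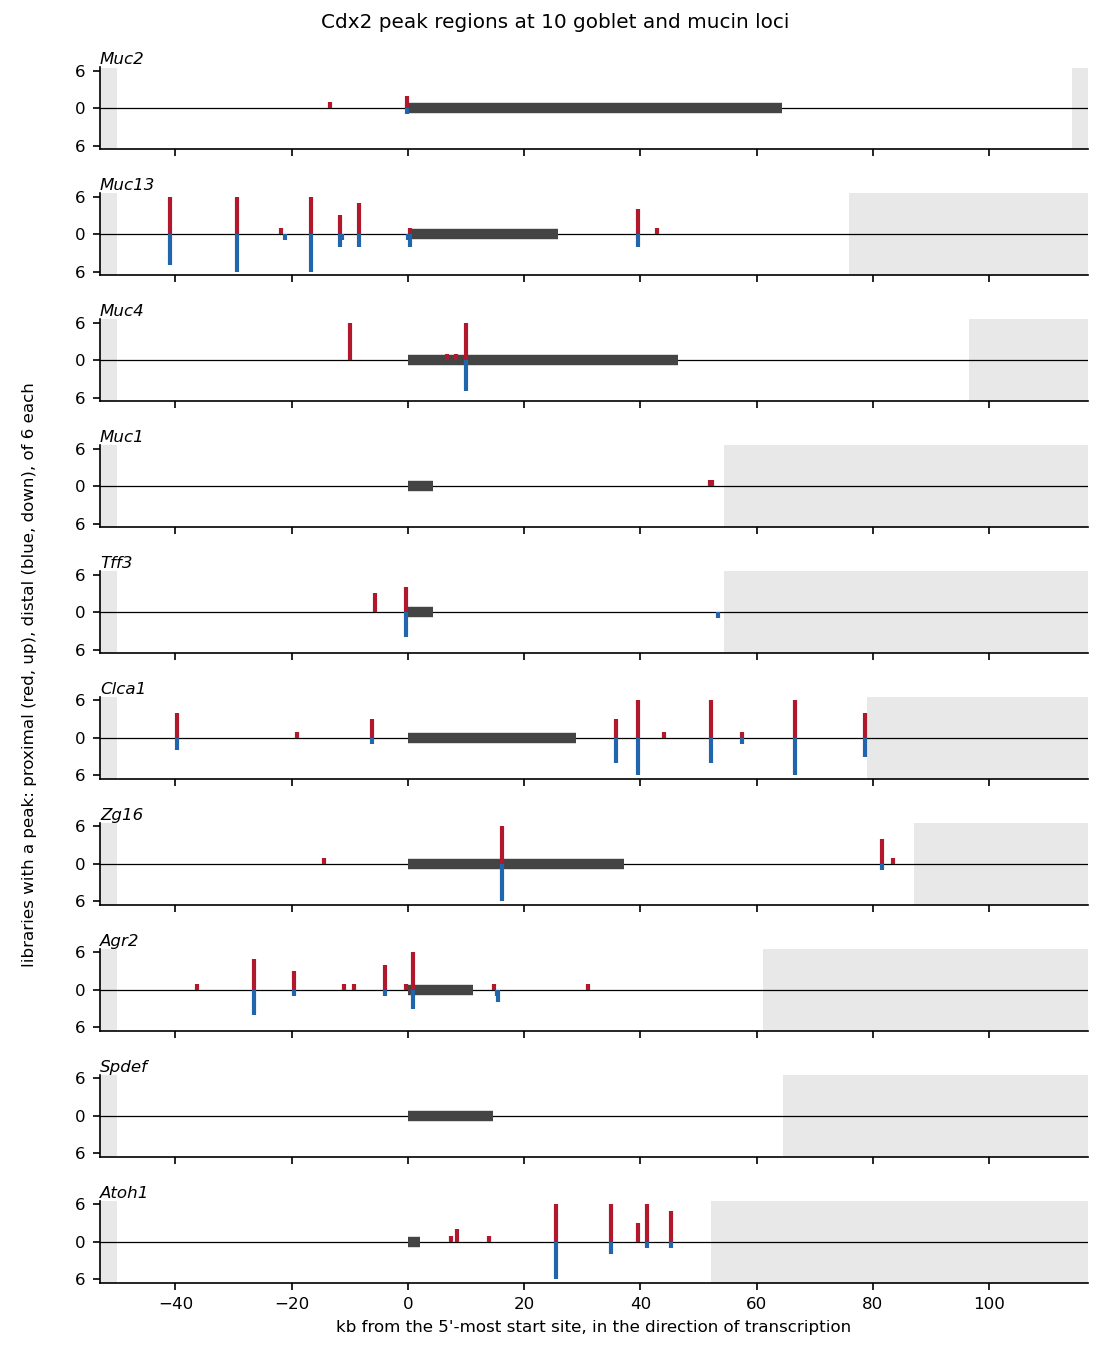
Positions of the 57 Cdx2 regions at the 10 loci, in kb from the most upstream start site in the direction of transcription; the dark bar is the gene body and grey marks what lies outside the 50 kb windows. Red bars upward count the proximal libraries with a peak and blue bars downward the distal libraries, out of 6 each; Spdef has none, and the tall bars of Clca1 lie beyond the end of the gene.

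Of the 57 regions, 24 lay upstream of the gene body, 7 inside it and 26 downstream. The median distance from the nearest start site of the member was 16.1 kb. By annotation 30 regions were intergenic, 21 intronic and 6 in exons or untranslated regions. For 20 regions the nearest protein-coding start site belonged to a gene other than the member, so the assignment to the member rests on the window alone. Exactly 6 regions were called in all 12 libraries, beside 3.38% of all regions. Another 24 were called in 1 library, beside 42.2% of all regions. The 6 shared regions had median percentiles from 77.9 to 98.4, with a middle value of 97.8, compared with 88.3 over all regions shared by the 12 libraries. A middle value of 54.7 was found for the 27 member regions called in 2 to 11 libraries and of 37.4 for those called in 1 library.

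**Figure D2:**
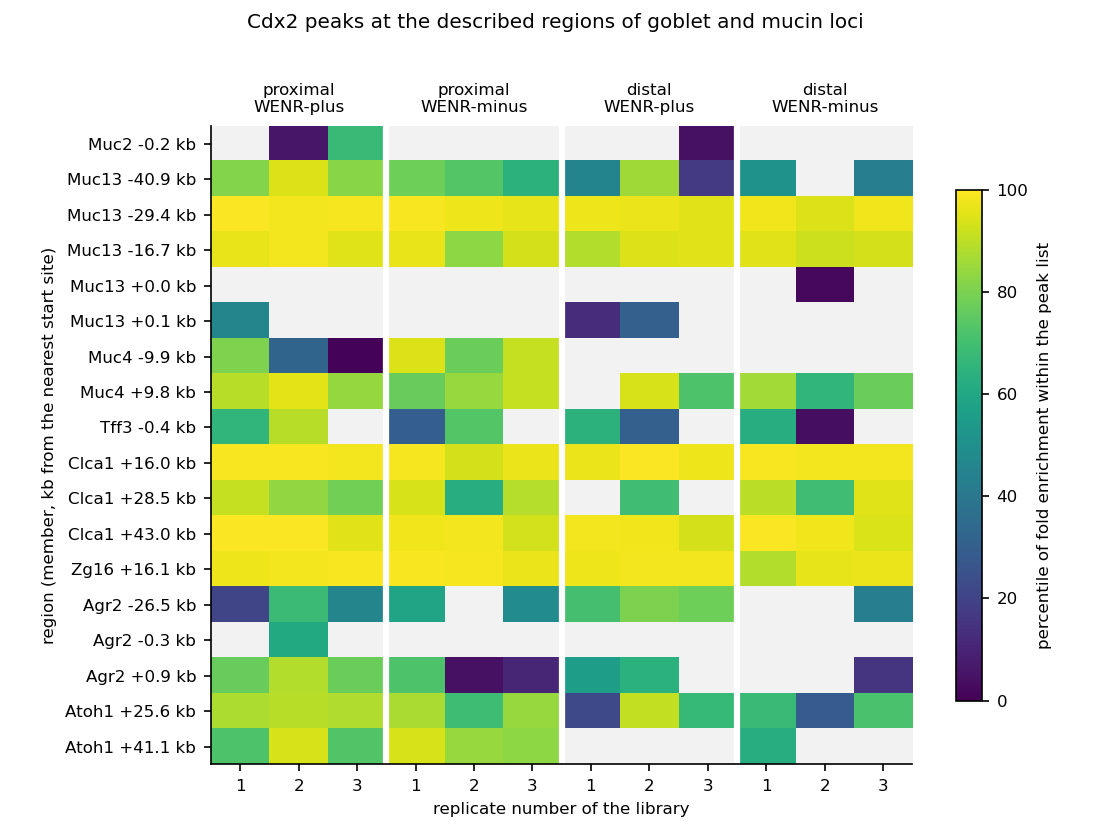
Percentile of the fold enrichment within each list (colour, 0 to 100) at the 18 regions described singly, with 1 column per library; grey cells are libraries without a peak. The rows of Clca1 +16.0 kb, Clca1 +43.0 kb, Zg16 +16.1 kb and Muc13 -29.4 kb are filled with high percentiles in all 12 libraries, the upstream site of Muc4 is filled in the 6 proximal libraries alone, and the start-site rows of Muc2 and Muc13 are mostly empty.

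Muc2 carried the least binding of the secreted mucus genes. A region 0.24 kb upstream of its first start site was called in proximal WENR-plus replicates 2 and 3 and in distal WENR-plus replicate 3, with folds of 3.74, 7.83 and 4.27. The corresponding percentiles were 6.01, 67.9 and 4.54, so 2 of the 3 peaks were among the weakest of their lists. The only other region, 13.4 kb upstream, was called in 1 proximal library. No peak summit lay inside the 64.4 kb Muc2 gene body in any of the 12 libraries.

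Muc13 had 12 regions, the joint highest number with Agr2. The strongest, 29.4 kb upstream and in an intron of the neighbouring gene Heg1, was called in all 12 libraries with a median percentile of 97.7. A Heg1 start site, at 8.11 kb, was nearer than the Muc13 start, so this region is described by position and not as a site of either gene. Its folds were 23.1, 19.1 and 24.7 in proximal WENR-plus and 23.9, 18.0 and 17.0 in proximal WENR-minus. In distal organoids they were 14.5, 15.1 and 13.7 in WENR-plus and 14.2, 11.4 and 16.4 in WENR-minus. Every proximal fold of this site was above every distal fold as deposited, which held for 11.8% of the 2079 regions that every library shared, and after centring on the library median the sites overlapped. A match to the Cdx2 sequence lay within 50 bp of the summit in 12 of 12 libraries, the only shared member region for which this held.

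A further Muc13 region, 16.7 kb upstream in an intron of the noncoding gene Gm15657, was also called in all 12 libraries. Its folds ran from 8.84 to 18.5, with a median percentile of 94.9, and the lowest and the highest value both came from proximal organoids. At 40.9 kb upstream a region was called in 11 libraries, all but distal WENR-minus replicate 2. That summit lay 0.056 kb from a start site of Heg1, so it is a Heg1 promoter site within the window of Muc13. At the Muc13 start itself binding was sparse. A region 0.07 kb downstream of a start site was called in proximal WENR-plus replicate 1 and distal WENR-plus replicates 1 and 2, at percentiles of 45.7, 12.5 and 30.5. A separate region at the first start site was called in distal WENR-minus replicate 2 alone, at percentile 2.03.

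Among the 10 members, Muc4 showed the clearest contrast between the colon sites in the presence of a region. Its upstream region, 9.91 kb from the first start site at chr16:32725661-32726401, was found by all 6 proximal libraries and by 0 of 6 distal libraries. This pattern was found at 1 of 57 member regions, beside 1.04% of all regions, and had an adjusted p of 0.114 in the Fisher exact test. The opposite pattern was found at no member region, beside 0.0553% of all regions. The folds were 7.55, 4.56 and 3.37 in proximal WENR-plus and 12.5, 8.01 and 12.6 in proximal WENR-minus. The WENR-minus folds were all above the WENR-plus folds, as at 4.33% of the 6005 regions called in all 6 proximal libraries. The percentiles, at 80.6, 32.04 and 1.14 in WENR-plus and 94.5, 77.7 and 91.2 in WENR-minus, overlapped. The peak of proximal WENR-plus replicate 3 was thus close to the bottom of its list. In lists reduced to the length of the shortest, the region remained in 1 proximal WENR-plus library, 3 proximal WENR-minus libraries and 0 distal libraries. A match to the Cdx2 sequence lay within 50 bp of the summit in 2 of the 6 libraries.

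Inside Muc4, a region in an intron 9.77 kb downstream of a start site was called in 11 libraries, all but distal WENR-plus replicate 1. Its folds were 9.19, 13.8 and 10.6 in proximal WENR-plus and 6.84, 9.20 and 12.6 in proximal WENR-minus. Distal folds were 12.0 and 8.11 in WENR-plus and 8.07, 6.70 and 8.04 in WENR-minus. The proximal and distal values of this intronic site overlapped, unlike the presence of the upstream site. Muc1, by contrast, had 2 regions at the edge of its window, each called in 1 proximal library, and both were nearest to the start site of Efna1.

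Tff3 encodes a trefoil peptide that protects and repairs the epithelium. A region 0.39 kb upstream of its start site, at chr17:31129846-31130471, was called in 8 libraries, 2 in each of the 4 groups. It was called in replicates 1 and 2 of every group and in none of the 4 libraries with replicate number 3. In proximal organoids the folds were 6.02 and 9.41 with the factors and 4.30 and 7.43 without them. In distal organoids they were 7.05 and 5.33 with the factors and 5.81 and 3.94 without. The ranges overlapped between sites in both media and between media at both sites. The lists of replicate 3 were the shortest or next to the shortest of their groups, and the part of list length in the absence from replicate 3 was not tested. With a −log10 q of at least 5 the region was left in 5 libraries, and in lists of equal length in 3, of which 1 was distal and 2 were proximal. A match to the Cdx2 sequence lay near the summit in 1 of the 8 libraries. A region 5.6 kb upstream was called in 3 proximal and 0 distal libraries.

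Clca1, which encodes a secreted protease of the mucus, had 10 regions, of which 7 lay downstream of the gene body and none inside it. The site with the highest median percentile of all member regions, 98.4, lay in intergenic sequence 10.6 kb beyond the end of Clca1 and 39.6 kb from its most upstream start site, at chr3:144992564-144994047. The folds here were 20.3, 21.9 and 23.7 in proximal WENR-plus and 21.0, 12.7 and 18.5 in proximal WENR-minus. In distal organoids they were 14.1, 21.3 and 16.2 in WENR-plus and 18.1, 15.4 and 18.3 in WENR-minus. These folds overlapped between sites in both media.

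The next Clca1 site in strength lay 43.0 kb from the nearest start site, in an intron of the paralogue Clca4a and 8.91 kb from the Clca4a start. It was called in all 12 libraries with folds from 12.4 to 29.5, and its median percentile was 98.01. Between these lay a region in an exon of the noncoding gene Gm35066, called in 10 libraries. It was found in all proximal libraries and all distal WENR-minus libraries, but in distal WENR-plus only in replicate 2. Peaks there had a match to the Cdx2 sequence in all 10 libraries. Because Clca4a was nearer than Clca1 to both of these regions, they are described by position and not as sites of either gene.

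Zg16 encodes a lectin-like protein of the mucus that binds bacterial cell walls. Its shared region, at chr7:127070732-127071647, lay in an intron of the longest annotated form, 16.1 kb downstream of the distant start sites of that form and 19.2 kb upstream of the start of the principal coding form. It was called in all 12 libraries with a median percentile of 97.9. The folds were 15.6, 19.1 and 28.0 in proximal WENR-plus and 25.9, 23.7 and 18.4 in proximal WENR-minus. Distal folds were 14.99, 17.3 and 17.1 in WENR-plus and 8.54, 12.3 and 15.4 in WENR-minus. In WENR-minus all 3 proximal folds were above all 3 distal folds, as at 27.2% of the 2079 shared regions, and in WENR-plus the groups overlapped.

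Agr2 had 12 regions, of which none was called in all libraries. An intronic region 0.90 kb downstream of its start site was called in all 6 proximal libraries, in distal WENR-plus replicates 1 and 2 and in distal WENR-minus replicate 3. Its folds were 6.97, 9.09 and 9.10 in proximal WENR-plus against 6.35, 4.06 and 4.27 in proximal WENR-minus. The WENR-plus values were all higher, as at 13.2% of the 6005 regions that the 6 proximal libraries share, and the difference had an adjusted p of 0.431 in the limma fit over these regions. In distal organoids the folds were 6.61 and 6.88 in WENR-plus and 4.54 in WENR-minus. In lists of equal length the region was left in 4 libraries, 2 proximal and 2 distal, all in WENR-plus. Of the 9 peaks, 6 had a match to the Cdx2 sequence near the summit.

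A region 26.5 kb upstream of Agr2 was called in 9 libraries, with higher folds in distal than in proximal WENR-plus. The folds were 7.49, 8.44 and 8.80 in distal WENR-plus against 4.33, 6.13 and 6.19 in proximal WENR-plus. The groups did not overlap, and every distal fold was above every proximal fold at 2.47% of the 2911 regions called in all 6 WENR-plus libraries. In WENR-minus, 2 proximal libraries and 1 distal library had it. After reduction to the shortest list it was left in 4 libraries, of which 3 were distal WENR-plus, 1 was distal WENR-minus and 0 were proximal. In the limma fit over these 2911 regions, of which 81 (2.78%) passed, the proximal minus distal difference in centred log2 fold was −1.02 (SE 0.24, adjusted p = 0.0445). The adjusted p was 0.309 without replicate 1, 0.245 without replicate 2 and 0.124 without centring, so the call was lost under each of these. It was 0.0448 without replicate 3, so the call was kept there. With replicate number as a block it was 0.00683, but the numbers were not taken as pairs between sites. In the blocked fit 365 of the 2911 regions passed. Of the 8 member regions in this fit 1 passed, and this region does not enter the fit over all 12 libraries. Immediately upstream of the start site, a peak was called in proximal WENR-plus replicate 2 alone.

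Atoh1 had 8 regions, all downstream of its short gene body. The region 25.6 kb downstream was called in all 12 libraries, with a median percentile of 77.9, the lowest of the 6 shared regions. In lists of equal length it was left in 9 libraries and with a −log10 q of at least 5 in 10, so under both settings 3 members in place of 4 had a region in every library. Its folds were 8.87, 9.41 and 12.0 in proximal WENR-plus and 8.87, 7.08 and 9.997 in proximal WENR-minus. In distal organoids they were 5.29, 10.7 and 7.68 in WENR-plus and 6.13, 5.13 and 7.34 in WENR-minus, so the sites overlapped. A region 41.1 kb downstream, at chr6:64770013-64770989, was called in all 6 proximal libraries and in distal WENR-minus replicate 1. The proximal folds there ran from 6.40 to 12.1 and the distal one was 5.81. In lists of equal length it was left in 5 proximal and 0 distal libraries. Another region, 34.9 kb downstream, was called in 6 proximal and 2 distal libraries.

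**Figure D3:**
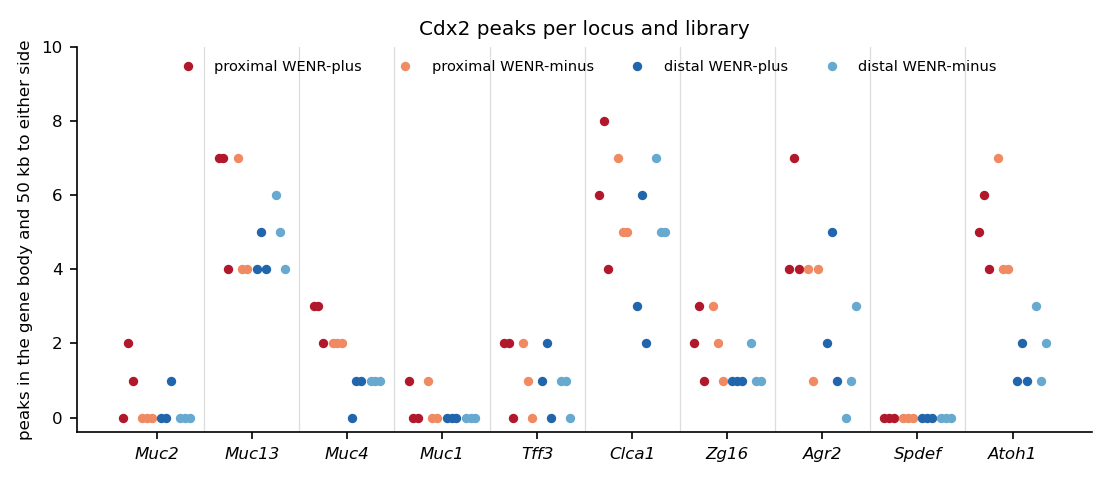
Number of Cdx2 peaks at each locus in each of the 12 libraries, with 1 point per library and colours for the 4 groups. At Atoh1 the proximal libraries have 4 to 7 peaks and the distal libraries 1 to 3, at Muc4 they have 2 to 3 and 0 to 1, and at the other loci the sites overlap or have no peak.

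The comparison of colon sites asked whether proximal and distal organoids differ in binding at these genes. Atoh1 had 5, 6 and 4 peaks in proximal WENR-plus and 7, 4 and 4 in proximal WENR-minus, against 1, 2 and 1 in distal WENR-plus and 3, 1 and 2 in distal WENR-minus. Muc4 had 3, 3, 2, 2, 2 and 2 peaks in the same order of proximal libraries, against 0, 1, 1, 1, 1 and 1 in distal libraries. At these 2 of the 10 loci every proximal library was above every distal library, which held for 2.13% of protein-coding loci. The opposite held for 0 members and for 0% of protein-coding loci. In lists of equal length neither locus kept the separation, with 1 to 3 against 0 to 2 peaks at Atoh1 and 1 to 2 against 0 to 1 at Muc4. Under that setting 0.411% of protein-coding loci had every proximal library above every distal library. Within a medium, such a separation of 3 against 3 libraries fixes the exact permutation p at 0.1, the smallest possible. For both genes this p therefore adds nothing to the separation itself.

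Over the 10 loci together, proximal WENR-plus had 30, 38 and 20 peaks and distal WENR-plus 12, 22 and 11. The mean was 29.3 ± 9.02 (SD, n = 3) against 15 ± 6.08, a log2 difference of 0.99 with overlapping groups (two-sided exact permutation p = 0.2). In WENR-minus the numbers were 33, 19 and 20 in proximal and 20, 15 and 16 in distal, a log2 difference of 0.46 (exact permutation p = 0.3). The groups overlapped in both media. With lists of equal length the difference in WENR-plus was −0.07, so the sign turned.

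As a share of the list, the 10 loci held 0.0937, 0.0901 and 0.147% of the peaks in proximal WENR-plus and 0.163, 0.165 and 0.196% in distal WENR-plus. Here the groups did not overlap and the log2 difference was −0.69, at the smallest exact permutation p of 0.1 that 3 against 3 libraries allow. At equal list length the share is the number over a constant, so its difference is then the one given above for the number. The shares were 0.118, 0.119 and 0.175% in proximal WENR-minus and 0.0951, 0.190 and 0.202% in distal WENR-minus, which overlapped (log2 difference −0.19, exact permutation p = 0.8). The lowest distal share came from WENR-minus replicate 1, the longest distal list with 21040 peaks. Peaks were denser in the 10 windows than in the windows of all protein-coding genes in 12 of 12 libraries, by a ratio of 1.89 to 3.5. The 10 genes were chosen with earlier results of these data known, so this ratio is a description and no independent test. The 12 libraries count the same windows.

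**Figure D4:**
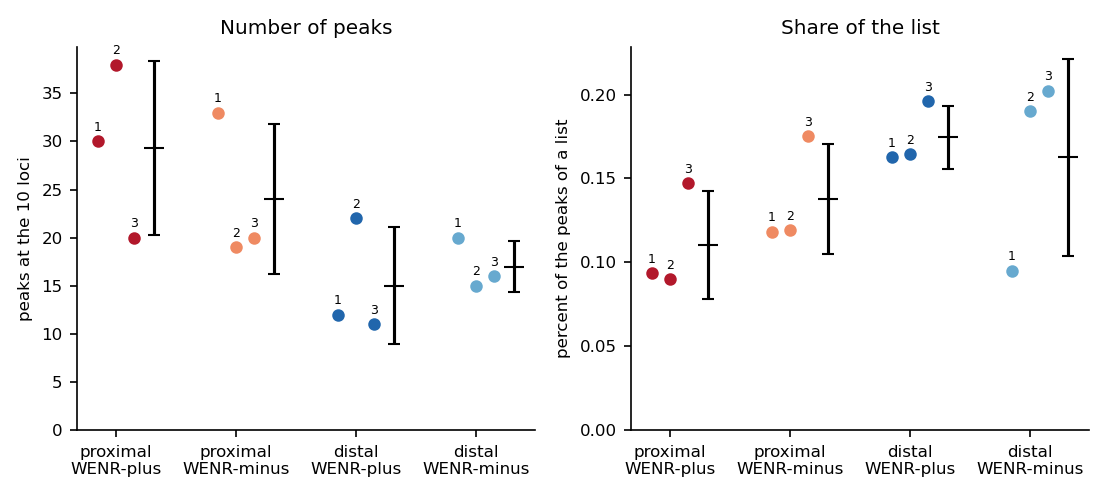
Peaks at the 10 loci (left) and the same peaks as a percent of the list (right) for each library; numerals are replicate numbers, and black bars give the mean and SD of 3 libraries. The number is higher in proximal than in distal WENR-plus on average with overlap at 20 and 22 peaks, whereas the share is lower in all 3 proximal WENR-plus libraries than in all distal WENR-plus libraries.

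By presence of single regions, 41 of the 57 were called in more proximal than distal libraries, 8 in more distal and 8 in equal numbers, beside 80.6% of all regions with more proximal libraries. In WENR-plus, 2 of the 57 were called in all 3 proximal and 0 distal libraries, the upstream Muc4 region and the Atoh1 region at 41.1 kb, against 4.69% of all regions. In WENR-minus the upstream Muc4 region was the only one, 1 of 57 against 2.04%. None were called in all 3 distal and 0 proximal libraries, against 0.15% in WENR-plus and 0.334% in WENR-minus. In the two-sided Fisher exact test of 6 against 6 libraries, 33 member regions could be tested and none passed after Benjamini-Hochberg adjustment over 35518 regions. The Muc4 region had a Fisher exact p of 0.00216, the smallest this test can give, and an adjusted p of 0.114. The Atoh1 region had a Fisher exact p of 0.0152 and an adjusted p of 0.289. These were 2 of 33 member regions at an unadjusted p under 0.05 in the proximal direction, beside 4.96% of all regions tested. There were 0 in the distal direction, beside 0.282%. Since both media of a culture enter this test, its p-values treat related libraries as independent.

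Genes with a region called in every library of a group were counted too. In proximal organoids there were 6 of 10 members with WENR-plus (41.8% of protein-coding genes) and 6 with WENR-minus (32.1%). In distal organoids there were 5 with WENR-plus (18.6%) and 5 with WENR-minus (22.3%). Both proximal groups had Muc13, Clca1, Zg16, Atoh1, Muc4 and Agr2, distal WENR-plus lacked Muc4 and distal WENR-minus lacked Agr2. The share over all genes was lower in distal lists.

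At the 6 member regions called in all 12 libraries, the fold itself could be compared. The log2 fold was centred on the library median over these 2079 shared regions and fitted with limma. Between sites in WENR-plus, 121 of these regions (5.82%) passed an adjusted p of 0.05, of which 66 were higher in proximal, and 0 of the 6 member regions passed. In WENR-minus 63 regions (3.03%) passed, of which 46 were higher in proximal, and again 0 member regions. The differences of the 6 ran from −0.18 to 0.17 in WENR-plus, with adjusted p of at least 0.760. In WENR-minus they ran from −0.31, at the intergenic Clca1 site (SE 0.21, adjusted p = 0.453), to 0.64. The largest was at Zg16, higher in proximal by 0.64 on the log2 scale (SE 0.28, unadjusted p = 0.0358, adjusted p = 0.224). Without centring, this difference was 0.93 with an adjusted p of 0.0481, and in all 366 regions passed in WENR-plus, 362 of them higher in proximal, and 186 in WENR-minus, 182 of them higher in proximal. The library medians were higher in proximal by 0.48 in WENR-plus and 0.30 in WENR-minus.

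**Figure D5:**
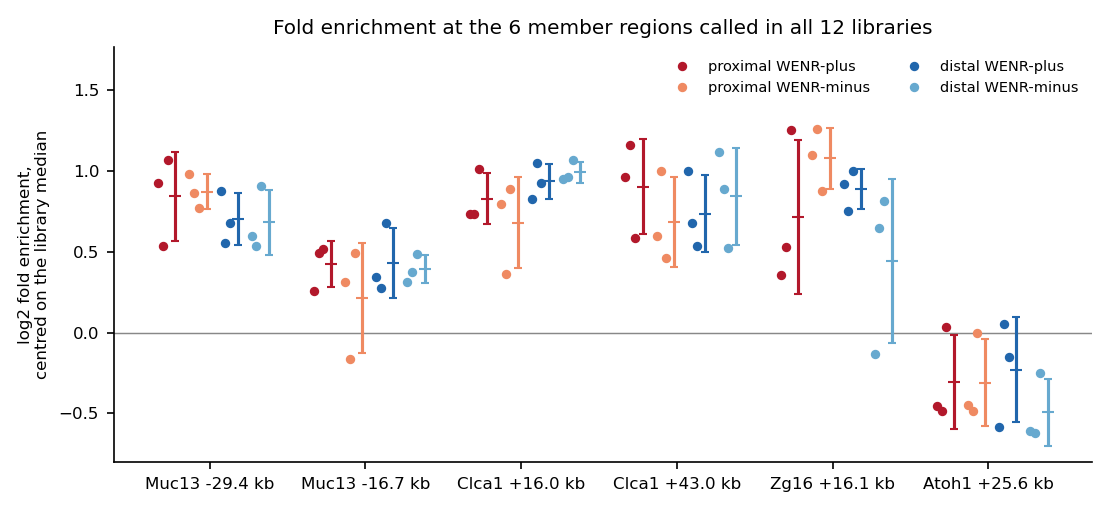
Log2 fold enrichment at the 6 member regions called in all 12 libraries, centred on the median of each library over 2079 regions; points are libraries and bars the mean and SD of 3. The regions of Muc13, Clca1 and Zg16 lie mostly above 0 and that of Atoh1 near or below 0, and the sites overlap except in WENR-minus at Zg16, where all proximal values are higher, and at Clca1 +16.0 kb, where all distal values are higher (13.3% and 11.3% of the 2079 regions in these directions).

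The comparison of media asked whether withdrawal of the niche factors changed binding at the same genes. Member peaks numbered 29.3 ± 9.02 in proximal WENR-plus and 24.0 ± 7.81 in proximal WENR-minus (log2 difference 0.29, exact permutation p = 0.6). In distal organoids they numbered 15 ± 6.08 and 17.0 ± 2.65 (log2 difference −0.24, exact permutation p = 0.6). The shares differed by −0.33 in proximal (exact permutation p = 0.3) and by 0.17 in distal (exact permutation p = 0.9) on the log2 scale. The groups overlapped in all of these comparisons.

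Of the 57 regions, 27 were called in more WENR-plus than WENR-minus libraries, beside 53.3% of all regions, and 18 in fewer. None was called in all 3 libraries of one medium and 0 of the other. In proximal organoids the background for this was 0.74% of all regions with WENR-plus alone and 0.119% with WENR-minus alone, and in distal organoids it was 0.129% and 0.41%. In the Fisher exact test by medium 0 of 33 member regions had an unadjusted p under 0.05, beside 0.189% of all regions tested, and the smallest adjusted p over all regions was 1. With limma, 0 of the 2079 shared regions (0%) passed between media in proximal organoids and 0 (0%) in distal organoids, with 185 and 225 at an unadjusted p under 0.05, none of which was a member region. With replicate number as a block, 1 region passed in proximal and 35 in distal organoids, and none was a member region.

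The difference between media at the 6 shared member regions was from −0.36 to 0.22 in proximal and from −0.11 to 0.45 in distal organoids. Zg16 gave the extreme value in both, lower in WENR-plus in proximal and higher in WENR-plus in distal organoids. The interaction of site and medium passed for 0 of 2079 regions in limma, with 89 at an unadjusted p under 0.05. At the upstream Muc4 region the WENR-plus minus WENR-minus difference in log2 fold was −1.30 in the proximal libraries (SE 0.30), with an unadjusted p of 0.000745 and an adjusted p of 0.283 in limma over the 6005 regions called in these 6 libraries, of which 0 (0%) passed. With replicate number as a block the difference had an SE of 0.26 and an adjusted p of 0.0371, and 54 of the 6005 regions (0.899%) passed, of which 1 of 13 member regions. In each of the 3 pairs the WENR-minus fold was the higher one, which any pairing gives because the folds of the groups do not overlap. This fit was added after the data were seen, and the unblocked adjusted p ran from 0.245 to 0.986 with a replicate left out.

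The Cdx2 sequence was compared between member peaks and the lists as a whole. Within 50 bp of a summit it was present at 53.2 ± 13.6% of member peaks (SD, n = 12 libraries), against 57.3 ± 5.93% of all peaks of the same lists. Windows placed 1000 bp away gave 10.4% and 10.9%. The member share was above that of its list in 4 of 12 libraries. It was present at most summits of 5 of the 6 regions shared by all libraries, of 11 of the 27 called in 2 to 11 libraries and of 6 of the 24 called in 1 library. No share of all regions is given for these classes. The exception among the shared regions was Atoh1, with a match in 5 of 12 libraries although its median summit lay 5 bp from the centre of one.

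The GATA sequence, searched on both strands as A or T, then GATA, then A or G, was found at 10 of the 33 member regions called in at least 2 libraries (30.3%), beside 26.9% of all such regions. The TCF/LEF sequence, CTTTGA followed by A or T, was found at 0 of 33, beside 5.78%. Counted over the same regions, the Cdx2 sequence was found at 19 of 33 (57.6%), beside 66.8%. At the RefSeq promoters of GRCm38 (a short stretch around each start), 7 members could be matched and Agr2 and Muc13 held the Cdx2 sequence, beside 14.4% of 32851 promoters. Clca1, Tff3 and Zg16 were not matched.

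A wider list of 40 goblet cell and mucin genes, written from general knowledge but with earlier results of these data known, gives the context of these 10. A region present in every library was found at 10 of the 40 loci, beside 12.9% of protein-coding genes. By role these were 5 of 7 genes of the secretory machinery (Atp2c2, Bcas1, Ern2, Nlrp6 and Sytl2), 3 of 9 of mucin glycosylation (Gcnt1, Gcnt3 and Fut2), 2 of 7 other mucins (Muc3 and Muc3a), 0 of 9 secreted products and 0 of 8 lineage transcription factors. The gel-forming mucin Muc5ac and the protease Klk1 had no region, 2 of 40 beside 15.5% of protein-coding genes. All 3 libraries of a group had a common region at 31 of the 40 in WENR-plus (41.8% of protein-coding genes) and 23 in WENR-minus (32.1%) for proximal organoids, and at 13 (18.6%) and 16 (22.3%) for distal ones.

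Start-site regions were present in at least 1 library at 8 of the 40, beside 22.7% of protein-coding genes. B3gnt6, a glycosyltransferase of mucin glycans, had one in 9 libraries, 5 proximal and 4 distal. The forkhead factor Foxa1 had one 0.062 kb from a start site in 9 libraries, 5 proximal and 4 distal. Gcnt3, which builds branched mucin glycans, had one in 6 proximal and 2 distal libraries, with a median percentile of 86.3. Klf4, a zinc finger factor of goblet cell differentiation, had one in 4 libraries and Agr3, the neighbour of Agr2, in 2. Itln1, C1galt1 and C1galt1c1 had one in 1 library each. None of the 40 had a start-site region in all 12 libraries. Windows of neighbours such as Tff1, Tff2 and Tff3, or Agr2 and Agr3, overlap, so these loci share peaks.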

How the data were processed

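Cdx2 ChIPmentation had been done on 12 libraries with 12 matched inputs; the inputs were not analysed here beyond their use in peak calling. Reads passed through Trimmomatic 0.39 and Bowtie2 2.4.5 (mm10), duplicates were dropped in SAMtools 1.13, and MACS2 2.2.7.1 listed the peaks of each library at q 0.01. These versions are those of the submitters' processing notes, and the study's own software list names other versions of Bowtie2 and SAMtools. The deposited fold enrichment of the authors is the ratio of the summit pileup to local background. The −log10 p-value and −log10 q-value of a peak and an integer score derived from the q-value were also deposited. Each is relative to its own library.

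The 10 genes, the 40 further genes and the tests were chosen with earlier results of these data known. Main-chromosome peaks (1 to 19, X, Y) were merged where they overlapped by at least 1 bp, and GENCODE vM21 gave gene bodies and start sites. Regions are described singly if called in at least 9 libraries, in all 3 libraries of one group and 0 of the other, or within 3 kb of a member's start site; the rest are given by counts. Of the 40 genes, up to 10 with most libraries at a start-site region are named. Python 3.11.15, scipy 1.17.1 and limma 3.58.1 with R 4.3.3 were used. Numbers and shares were compared by two-sided exact permutation over 3 against 3 libraries, presence by Fisher's exact test, and log2 fold by limma with a trend and Benjamini-Hochberg adjustment over all regions fitted. The tests were checked on simulated data.

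The labels give replicate numbers but do not say that a number marks the same mouse at both sites. The p-values set a difference against the spread between these libraries. Tests without a block or pairs treat the libraries as independent, although the organoids came from 3 mice. The deviations of same-numbered libraries from their group means correlated at 0.117, 0.401 and 0.570 between the media in proximal organoids, each over 0.1, so the numbers were taken as pairs there. Alternatives were lists restricted to a −log10 q of at least 5, lists cut to the shortest (5608 peaks), windows of 10 and 100 kb, regions joined by summits within 150 bp, fits without centring or on percentiles, a replicate block, and each replicate number left out in turn. The lists hold no read counts, and the read numbers that the study states for each library were not used here.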

Additional observations from a re-analysis of the deposited data

How the results depend on the processing

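The 4 loci shared by all libraries and the lack of Spdef peaks rest on presence. At equal list length 3 of 4 remained. In lists of equal length the log2 difference in member peaks between sites in WENR-plus turned to −0.070, that between media to −0.10 in proximal and 0.25 in distal organoids, and the share between sites in WENR-minus to 0.28. The regions found in all 3 libraries of one site and 0 of the other then numbered 0 for proximal and 1 for distal in WENR-plus, and 2 for proximal in WENR-minus. The separation of every proximal from every distal library, found at Muc4 and Atoh1, was then found at 0 members. Beside this, 0.411% of protein-coding loci were higher in proximal and 0.219% higher in distal libraries. With a −log10 q of at least 5 the separation was also found at 0 members, beside 2.32% and 0.0137% of protein-coding loci. Both settings were chosen after seeing the data. That q limit left 1 region for proximal WENR-plus. Windows of 10 kb left 1 such region and 2 genes with a region in all libraries, and windows of 100 kb gave 6 in WENR-plus and 3 in WENR-minus. The counts of regions and genes under these settings are given without the share of all regions or genes. A change at the members therefore cannot be told apart from a change of the whole lists. With windows of 100 bp to either side the Cdx2 sequence was at 77.5% of member peaks and 76.4% of all peaks.

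Leaving out each replicate number in turn gave 2 to 8 of 57 regions found in proximal WENR-plus alone, beside 6.38 to 19.8% of all regions. It gave 3 in proximal WENR-minus alone, beside 3.24 to 4.82%, and 0 to 1 in distal WENR-minus alone, beside 0.672 to 0.783%. Between media the counts were 0 to 1 for each proximal group (1.21 to 8.11% of all regions with WENR-plus and 0.255 to 1.07% with WENR-minus), 0 to 3 for distal WENR-plus (0.202 to 0.999% of all regions) and 1 to 3 for distal WENR-minus (0.666 to 2.52%). Fewer libraries make this pattern easier to reach. The share between sites in WENR-minus ran from −0.44 to 0.053, turning without replicate 2. Peaks between media ran from −0.069, without replicate 2, to 0.5 in proximal and from −0.64 to 0.00599, without replicate 1, in distal organoids, where the share ran from −0.13, without replicate 1, to 0.36.

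In limma, 366 regions (362 higher in proximal) passed between sites in WENR-plus and 186 (182 higher) in WENR-minus without centring, the second with 1 member region, Zg16. On percentiles 1 and 2 passed. Without replicate 1 or without replicate 2 there were 0 in both media, and without replicate 3 there were 97 and 83. Over the regions of the 6 libraries compared 81 of 2911 and 114 of 3305 passed, the first with 1 member region, Agr2 −26.5 kb. The Zg16 difference in WENR-plus turned to 0.30 without centring and to 0.14 percentile points, and ran from −0.39 to 0.018 with a replicate left out, turning without replicate 1. In WENR-minus its adjusted p ran from 0.0481 to 0.757 over these settings.

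With replicate number as a block, 274 and 217 regions passed between sites, 1 and 35 between media in proximal and distal organoids, and 0 member regions in any. Over the regions of the 6 proximal libraries the block brought 1 member region, Muc4 −9.9 kb, past the threshold between media. Over the regions of the 6 WENR-plus libraries, Agr2 −26.5 kb passed between sites both with and without the block. The paired exact p of member peaks was 0.25, 0.25, 1 and 0.75 in the same order, and 0.25 is the smallest that 3 pairs allow. The correlations of same-numbered libraries ran from −0.0098 to 0.570, with 9 of 12 over 0.1, so outside the media comparison in proximal organoids the libraries were taken to share a number only. In the order used above, the p of the share under the pairing was 0.25, 0.75, 0.25 and 1. Of 260 values under another setting, 147 of the main results and 55 of the single regions kept their direction and side of the threshold or stayed within 1.5 times. The causes of the changes were not tested.

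The lists hold no read counts, so a region that is absent from a short list cannot be told apart from one that was not bound. Each group has 3 libraries, the smallest exact p is 0.1, and a window of 50 kb includes sites that are nearer to other genes.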
